A study of Mus musculus with 6 samples.

Results

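The common gamma chain cytokine receptors are the surface receptors of interleukins 2, 4, 7, 9, 15 and 21, and they were followed here as 8 genes read by 14 array probes. The members were chosen by name, as every non-control probe whose annotated gene is Il2ra, Il2rb, Il2rg, Il4ra, Il7r, Il9r, Il15ra or Il21r, out of 41174 different probes on the array. All 14 were among the 33502 probes tested, and 12 of them were well above background in both RNAs on all 6 arrays. CD4 T cells from spleens of the C57BL/6J strain, activated with PMA (a phorbol ester) plus ionomycin (a calcium ionophore), were compared with VIP (vasoactive intestinal peptide) and without it, to find transcripts that differ with VIP. Each of the 6 arrays held VIP-treated RNA in one dye and untreated RNA in the other, so each array gives a ratio of VIP over untreated for one biological replicate. The red dye Cy5 carried VIP RNA on replicates 1, 3 and 5, and the green dye Cy3 carried it on replicates 2, 4 and 6. Both groups were activated. The labels describe each sample as a pool of 5 to 10 spleens of male and female mice aged 6 to 32 weeks, from which beads against CD4 took the cells. The sources used here give neither the dose of VIP nor its duration.

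Cytokines of this family bind a receptor made of the shared gamma chain, encoded by Il2rg, and 1 or more other chains. Binding brings the kinases JAK1 and JAK3 together, and these phosphorylate STAT factors: mainly STAT5 for interleukins 2, 7, 9 and 15, STAT6 for interleukin 4 and STAT3 for interleukin 21. In T cells the interleukin 7 receptor marks resting cells and supports their survival, the alpha chain of the interleukin 2 receptor is induced by activation, and the interleukin 4 receptor takes part in the differentiation of T helper 2 cells. VIP acts through receptors that couple to cAMP.

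The probes on which the results turn are 60-base oligonucleotides. The first 30 bases of the probes of Il4ra, Il21r and Il7r are shown. The first 2 of these genes rose, and the Il7r probes had unequal fitted ratios that were not tested against each other.
Il4ra A_51_P464478: cccaaagtcactgccagttacccacatatg
Il21r A_51_P362877: agaggatctgctcttggtcacagaccctgc
Il7r A_51_P196695: atcaatcaactatgtttggatccagggaat
Il7r A_52_P555957: cccacagagaaaactacgaccaaaagcaat
Il7r A_52_P32750: tcaatcacgttcacaaaataagtatcatct
Both Il15ra probes are shown whole, because they share bases and their fitted ratios differed in sign. The capitals mark the 17 bases that they share.
Il15ra A_51_P202292: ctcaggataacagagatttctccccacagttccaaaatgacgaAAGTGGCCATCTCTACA
Il15ra A_52_P55902: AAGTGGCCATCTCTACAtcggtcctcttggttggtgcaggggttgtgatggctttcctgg
On mm9, the build of the files, the Il4ra probe lies at chr7:132721137-132721196 and the Il21r probe at chr7:132776151-132776210, both on the plus strand. The 3 Il7r probes lie on the minus strand of chromosome 15, at chr15:9435976-9436035, chr15:9440943-9441002 and chr15:9442570-9442629 in the order shown. The Il15ra probes span chr2:11645225-11652211 and chr2:11645753-11652254, which at 6987 and 6502 bases is far longer than a 60-base oligonucleotide. Whether the other probes lie in coding or untranslated exons was not analysed here.

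One array stood apart from the others. On replicate 5 the log2 ratio of VIP over untreated was -3.30 for Xist, 4.08 for Ddx3y and 4.18 for Eif2s3y, which are sex-linked transcripts, while on the other 5 arrays these 3 lay between -0.34 and 0.46. Both RNAs of replicate 5 thus differed in the sex of their cells, and on that array sex and VIP cannot be told apart. Spots with an outlier flag were left out and made up 13.5% of replicate 5 and 0.574% to 4.44% of the other arrays. The share of spots well above background ranged over 56.9% to 99.9% between arrays and dyes. The T cell genes Cd3d and Cd3g, and Cd4, for which the cells were selected, were well above background in both RNAs on all 6 arrays. The median normalised log2 intensity of Cd4 was 8.09 in VIP RNA and 8.10 in untreated RNA. Of the CD8 T cell genes, Cd8b1 was also above background on all 6 arrays, with medians of 12.2 and 12.3. Cd8a cleared background on 3 of 6 arrays in either RNA. The purity of the cells was not tested. Of 27 listed marker names (Adgre1 and Emr1 name the same gene) of CD8 T cells, NK cells, B cells, monocytes and macrophages, dendritic cells and mast cells and basophils, 25 were tested, 1 was called higher (Cd14, log2 ratio 0.57) and 0 lower (limma). Over all 23108 genes with a tested probe, 1.59% were called higher and 0.55% lower. The summed intensity of the 7 B cell markers ranged over 7446 to 14381 in VIP RNA and over 6980 to 15046 in untreated RNA. For the 5 monocyte and macrophage markers it ranged over 9892 to 19129 in VIP RNA and over 7873 to 18896 in untreated RNA, and its part in the results below was not tested. In these bulk RNAs, fewer cells of a type and less RNA per cell cannot be told apart.

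Of the 8 receptor genes, 2 were called higher with VIP, 0 were called lower and 6 did not pass. The genes that rose were Il4ra, a chain that the receptors of interleukins 4 and 13 share, and Il21r, the chain specific to interleukin 21. Each gene is represented by its brightest probe, and a call means a Benjamini-Hochberg adjusted p under 0.05 over all probes in limma's moderated fit with a term for the dye. By the same rule, 1.59% of the 23108 genes with a tested probe were called higher and 0.55% lower, 2.14% in all. Of all tested probes, 1.6% were called higher and 0.546% lower, 2.15% in all. At an unadjusted p under 0.05, 3 receptor genes were higher and 0 lower, against 7.34% of all genes higher and 5.81% lower. The median log2 ratio of the 8 genes was 0.049, against -0.00033 over the brightest probes of all genes. Per the labels the arrays are biological replicates. The p-values rest on the spread among the 6 arrays together with a prior spread drawn from all probes, with 4 residual and 6.5 prior degrees of freedom.

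**Figure D1:**
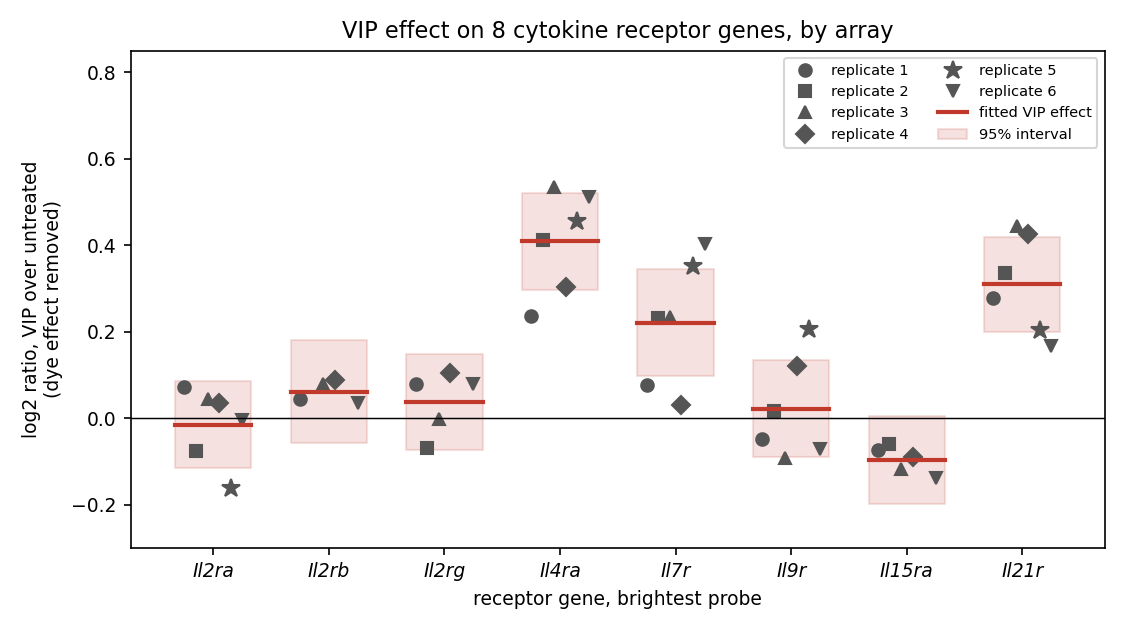
Log2 ratio of VIP over untreated (vertical axis, dye effect removed) for the brightest probe of each of the 8 receptor genes (horizontal axis). Each symbol is 1 array, the red line is the fitted VIP effect and the band its 95% interval. All arrays of Il4ra, Il21r and Il7r lie above 0, and the intervals of Il2ra, Il2rb, Il2rg, Il9r and Il15ra include 0.

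Il4ra had normalised log2 intensities of 13.31 at the lowest, 13.83 at the median and 14.21 at the highest in VIP RNA, against 13.13, 13.30 and 13.78 in untreated RNA. The groups overlapped between arrays. Within arrays, the ratio was higher with VIP on 5 of 6 arrays, and replicate 1 had -0.034. The gene rose 1.33-fold (log2 ratio 0.41 ± 0.050, SE, n = 6 arrays, 95% interval 0.30 to 0.52, limma adjusted p = 0.00205). The size of the ratio on single arrays depended on which dye held the VIP RNA. It was -0.034, 0.26 and 0.18 on replicates 1, 3 and 5, with VIP in Cy5, and 0.68, 0.57 and 0.78 on replicates 2, 4 and 6, where it was in Cy3. The fitted dye effect was -0.27. With that effect removed, all 6 arrays were above 0, between 0.24 and 0.54. The means within the 3 slides, each of which holds 1 array of either dye orientation, were 0.32, 0.42 and 0.48.

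Il21r had normalised log2 intensities of 12.37 at the lowest, 12.84 at the median and 13.27 at the highest in VIP RNA, against 11.98, 12.44 and 13.29 in untreated RNA. Here too the groups overlapped, and replicate 5 had the highest level of either RNA. The ratio was higher with VIP on 5 of 6 arrays, with -0.017 on replicate 5. The gene rose 1.24-fold (log2 ratio 0.31 ± 0.050, SE, n = 6 arrays, 95% interval 0.20 to 0.42, limma adjusted p = 0.00953). As with Il4ra, the ratios were smaller where VIP was in Cy5, at 0.057, 0.22 and -0.017, than where it was in Cy3, at 0.56, 0.65 and 0.39. The fitted dye effect was -0.22, and with it removed all 6 arrays lay between 0.17 and 0.45. The slide means were 0.31, 0.44 and 0.19.

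The calls of both genes depended on the processing. Without the dye term the log2 ratios kept their values, since the design is balanced, but the limma adjusted p was 0.153 for Il4ra and 0.230 for Il21r. With a normexp offset of 0 it was 0.0543 and 0.109, with Agilent's own log ratio, which the authors' series table repeats, 0.101 and 0.164, and without moderation 0.158 and 0.206. With the channels unpaired it was 1 for both, and with median centring 0.0363 for Il4ra and 0.0659 for Il21r. On each slide the dye orientation also coincided with the position of the array, so an effect of position and the dye effect cannot be told apart. Without replicate 5, the array whose sex-linked transcripts differed, the log2 ratio was 0.40 for Il4ra (limma adjusted p = 0.00135) and 0.34 for Il21r (limma adjusted p = 0.00333). Il21r lost its call without replicate 2 (0.30, limma adjusted p = 0.0526) and without replicate 3 (0.28, limma adjusted p = 0.0503), and Il4ra kept its call without any single array.

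**Figure D2:**
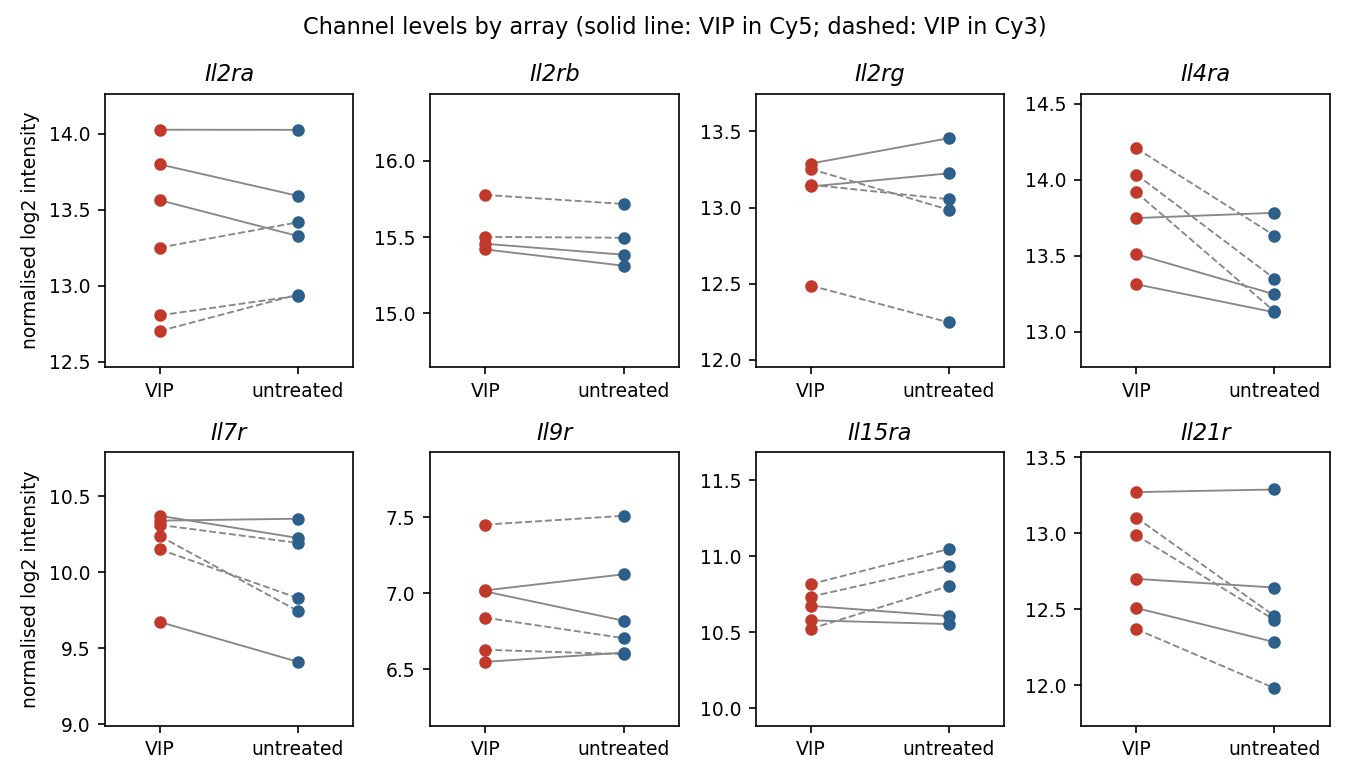
Normalised log2 intensity (vertical axis) of the brightest probe of each receptor gene in VIP RNA (red, left) and untreated RNA (blue, right). A line joins both RNAs of 1 array, solid where VIP was in Cy5 and dashed where it was in Cy3; every panel spans the same number of log2 units, and arrays with an outlier flag are absent. The lines of Il4ra and Il21r run from higher VIP to lower untreated levels on 5 of 6 arrays.

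Il4ra and Il21r are direct neighbours among the protein-coding genes of the RefSeq table (GRCm38, used for gene order only), and 54954 bases of mm9 lie between their probes. The protein-coding genes on either side did not pass. Nsmce1, a subunit of the SMC5-SMC6 complex, lies beside Il4ra and had a log2 ratio of 0.11 ± 0.050 (SE, limma adjusted p = 0.409). Gtf3c1, a subunit of the RNA polymerase III factor TFIIIC, lies beside Il21r and had -0.096 ± 0.047 (SE, limma adjusted p = 0.435). The next genes outward, Kdm8 and D430042O09Rik, had -0.024 and -0.13. The other adjacent pair in the family, Il2ra and Il15ra on chromosome 2, had brightest-probe ratios of -0.015 and -0.096, neither of which passed.

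**Figure D3:**
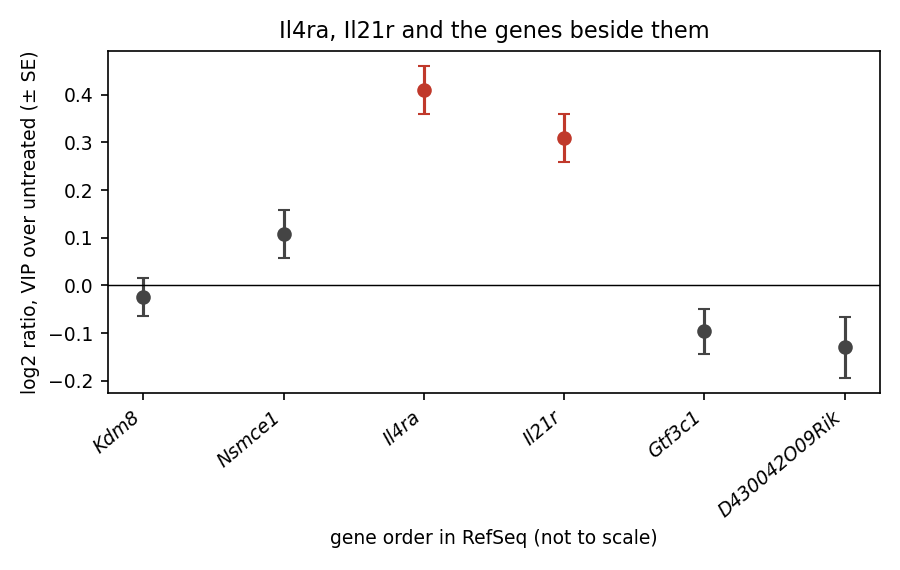
Log2 ratio of VIP over untreated with its SE (vertical axis) for 6 consecutive protein-coding genes in RefSeq order (horizontal axis, not to scale), with Il4ra and Il21r in red. Il4ra at 0.41 and Il21r at 0.31 are the genes called, and their neighbours lie between -0.13 and 0.11.

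Promoter windows of 300 bases, from 250 bases before to 50 after a RefSeq start (GRCm38.p6), were found for 7 of the 8 receptor genes, with 2 windows for Il15ra. The 250 bases before the start of Il4ra are shown because it had the highest log2 ratio of the 8 genes; they lie on the plus strand at chr7:125552021-125552270.
Il4ra: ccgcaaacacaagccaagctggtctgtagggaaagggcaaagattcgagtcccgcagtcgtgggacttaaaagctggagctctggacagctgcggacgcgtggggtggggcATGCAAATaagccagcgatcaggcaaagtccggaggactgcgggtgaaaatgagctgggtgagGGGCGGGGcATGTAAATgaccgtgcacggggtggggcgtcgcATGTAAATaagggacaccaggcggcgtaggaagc
The capitals mark a GC box, GGGCGGGG, which starts 76 bases before the start, and 3 copies of ATGNAAAT, a loose form of the octamer ATGCAAAT, which start 139, 67 and 34 bases before it. The octamer was added to the search after the window had been read. Its loose form and the cut at 3 copies match what this window holds, so their shares are descriptive and test nothing. On both strands, 17.6% of all 32851 windows held the GC box and 1.74% the octamer itself. ATGNAAAT was held at least once by 5.67% and 3 times or more by 0.0457%. The Il21r window held the GC box once and ATGNAAAT 0 times. The cAMP response element TGACGTCA, present in 1.79% of windows, was in none of the windows of these 7 genes, and its core TGACG, present in 20.8%, was in 1 window of Il15ra alone. That core is contained in the full one, and the octamer is a case of its loose form. With G as its free base, the loose form also contains TGGAAA, the NFAT motif below. AP-1's TGANTCA (7.81% of windows) was in the same Il15ra window, the STAT motif TTCNNNGAA (8.3%) was in that of Il7r, and the NFAT motif TGGAAA (21.4%) was in those of Il2rg and the other Il15ra window.

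Il7r, the alpha chain of the interleukin 7 receptor, did not pass. Its brightest probe had normalised log2 intensities of 9.67 at the lowest, 10.28 at the median and 10.37 at the highest in VIP RNA, against 9.41, 10.01 and 10.35 in untreated RNA. The ratio was above 0 on 5 of 6 arrays and, with the dye effect removed, on 6 of 6, between 0.029 and 0.40. The log2 ratio was 0.22 ± 0.056 (SE, n = 6 arrays, limma adjusted p = 0.0852), with a 95% interval of 0.10 to 0.35 that is not corrected for the number of probes. The other Il7r probes gave smaller values. A_52_P555957, which lies between the other 2, had 0.043 ± 0.059 and was well above background in both RNAs on all arrays. A_52_P32750 had -0.0028 ± 0.044 and cleared background on 3 of 6 arrays in VIP RNA and on 2 of 6 in untreated RNA. The 95% interval of A_52_P555957, -0.087 to 0.17, overlaps that of the brightest probe.

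The chains of the interleukin 2 receptor did not pass on any probe. Il2ra encodes CD25, the alpha chain that gives the receptor its high affinity and that activation induces. Its brightest probe had normalised log2 intensities of 12.70 at the lowest, 13.41 at the median and 14.03 at the highest in VIP RNA, against 12.93, 13.37 and 14.03 in untreated RNA. The 2 ranges nearly coincide. The ratio was above 0 on the 3 arrays with VIP in Cy5 and below it on the 3 with VIP in Cy3. The fitted dye effect was 0.16, and with it removed 3 arrays were above 0 and 3 below. The log2 ratio was -0.015 ± 0.045 (SE, n = 6 arrays, 95% interval -0.12 to 0.085, limma adjusted p = 0.940). The other 3 Il2ra probes had 0.032, -0.013 and 0.017. One of them, A_52_P330424, lies 42483 bases before the nearest of the others on mm9 and is annotated to another cDNA record than the brightest probe. It had the highest SE of the 4, with array ratios between -0.28 and 0.47. Over the 4 Il2ra probes the 95% intervals reached from -0.17 to 0.15.

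Il2rb, the beta chain that interleukins 2 and 15 share, was measured on 4 arrays, because its spots on replicates 2 and 5 carried an outlier flag. On these 4 arrays VIP RNA had normalised log2 intensities of 15.46, 15.42, 15.78 and 15.50, against 15.38, 15.31, 15.72 and 15.50 in untreated RNA. VIP RNA was the higher on all 4 arrays, by 0.0056 to 0.11. The log2 ratio was 0.061 ± 0.052 (SE, n = 4 arrays, 95% interval -0.058 to 0.18, limma adjusted p = 0.709). With the flagged spots kept, it was 0.043 ± 0.040 on 6 arrays.

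Il2rg, the common gamma chain itself, was measured on 5 arrays, without replicate 5. VIP RNA had normalised log2 intensities of 13.14, 13.15, 13.29, 13.25 and 12.49 on replicates 1, 2, 3, 4 and 6, against 13.22, 13.05, 13.46, 12.98 and 12.24 in untreated RNA. Replicate 6 was the lowest in both. The ratio was below 0 on replicates 1 and 3, which had VIP in Cy5, and above 0 on the 3 arrays with VIP in Cy3. The log2 ratio was 0.038 ± 0.049 (SE, n = 5 arrays, 95% interval -0.073 to 0.15, limma adjusted p = 0.832).

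Il15ra, the alpha chain that presents interleukin 15, had 2 probes whose fitted ratios were of opposite sign, and neither passed. The brightest, A_52_P55902, gave -0.096 ± 0.046 on the log2 scale (SE, n = 5 arrays, 95% interval -0.20 to 0.0061, limma adjusted p = 0.420). A_51_P202292 had 0.11 ± 0.045 (SE, n = 5 arrays, 95% interval 0.0052 to 0.21, limma adjusted p = 0.352). These are the overlapping oligonucleotides printed above, which share 17 bases. As measured, the array ratios of A_52_P55902 were 0.068, -0.20, 0.024, -0.23 and -0.28 on replicates 1, 2, 3, 4 and 6, and those of A_51_P202292 were 0.37, -0.21, 0.44, -0.19 and -0.16. These ranges overlap, and on every array both probes had the same sign, above 0 with VIP in Cy5 and below 0 with VIP in Cy3. The opposite signs appear once the fitted dye effects, 0.14 for A_52_P55902 and 0.29 for A_51_P202292, are removed. A_52_P55902 was then at -0.075, -0.061, -0.12, -0.089 and -0.14, and A_51_P202292 at 0.073, 0.088, 0.14, 0.099 and 0.13. With the flagged spots of replicate 5 kept, the log2 ratios were -0.079 and 0.074.

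Il9r, the chain specific to interleukin 9, was near background. Its probe cleared background on 3 of 6 arrays in VIP RNA and on 2 of 6 in untreated RNA. Normalised log2 intensities were 6.55 at the lowest, 6.93 at the median and 7.45 at the highest in VIP RNA, against 6.60, 6.76 and 7.51 in untreated RNA. The log2 ratio was 0.022 ± 0.051 (SE, n = 6 arrays, limma adjusted p = 0.920), and a ratio this close to background says little about the transcript.

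**Figure D4:**
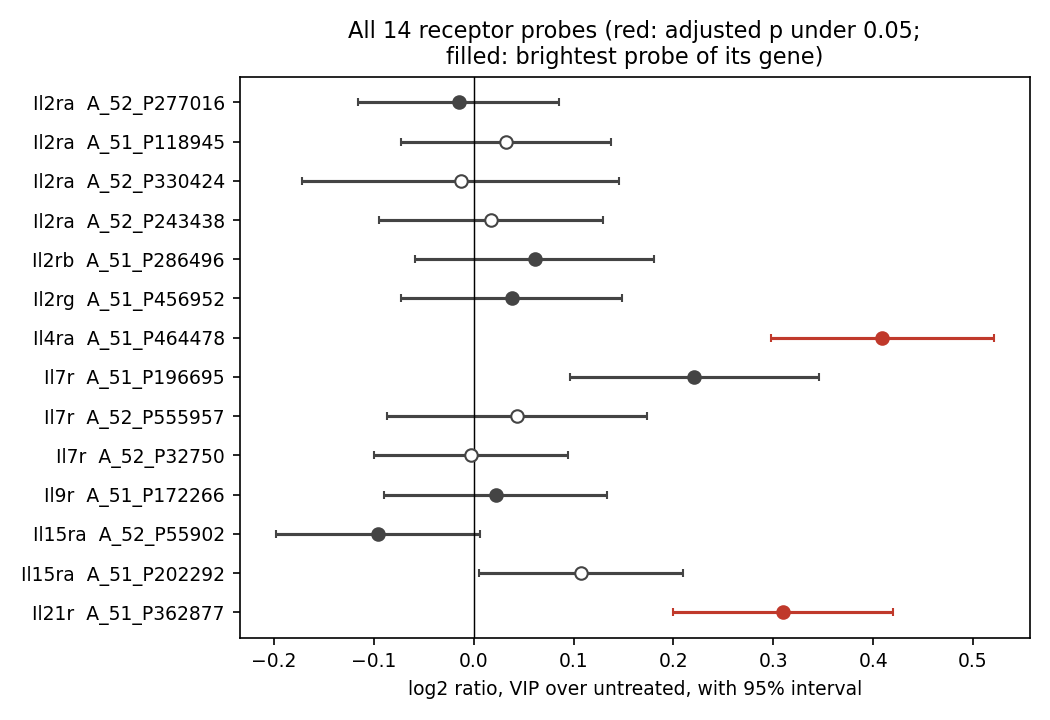
Log2 ratio of VIP over untreated with its 95% interval (horizontal axis) for all 14 receptor probes (rows, named by gene and probe). Filled points are the brightest probe of a gene and red ones have an adjusted p under 0.05, which holds for the single probes of Il4ra and Il21r. The Il15ra probes lie on opposite sides of 0, at -0.096 and 0.11.

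Pairs of receptor genes were compared over arrays, for 4 pairs, by their difference in log2 ratio (exact permutation test by sign flips, two-sided). Il4ra exceeded Il21r by 0.10 on average (range -0.091 to 0.40, higher on 4 of 6 arrays, exact p = 0.25, adjusted p = 0.5). Il4ra exceeded Il7r by 0.19 (range -0.078 to 0.45, higher on 4 of 6 arrays, exact p = 0.125, adjusted p = 0.5). Il2ra minus Il2rb was -0.024 on 4 arrays (range -0.19 to 0.16, exact p = 0.75, adjusted p = 0.75), and Il2ra minus Il2rg was -0.089 on 5 arrays (range -0.41 to 0.37, exact p = 0.5, adjusted p = 0.667). These differences still hold the dye effect. The smallest p that the test allows is 0.03125 with 6 arrays, 0.0625 with 5 and 0.125 with 4. Adjusted over 4 pairs, a p under 0.05 was out of reach for every pair, including both pairs with 6 arrays, so these tests cannot tell a difference from none.

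Channel levels of the called genes were set against those of all other tested probes over the 12 channels, after the mean of each dye was removed. The probes of other genes most like Il4ra were those of Myb, Cabc1 and Nr4a1, with Pearson r of 0.958, 0.948 and 0.945. Those most like Il21r were Gramd1b, Gla and Acly, with 0.978, 0.957 and 0.952. The 12 values come from 6 arrays with 2 channels each, so they share arrays and slides. These levels hold the difference between VIP and untreated RNA, so likeness to a called gene favours genes that were called themselves. The log2 ratios were 0.31 for Myb, 0.37 for Cabc1, 0.19 for Nr4a1, 0.20 for Gramd1b, 0.28 for Gla and 0.15 for Acly, which did not pass.

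Of 18 tested genes for the ligands, partner chains, kinases, STAT factors and feedback inhibitors of these receptors, 2 were called higher, 0 lower and 16 did not pass (limma). By the same rule, 1.59% of all genes were called higher and 0.55% lower. The median log2 ratio of the 18 genes was 0.015. At an unadjusted p under 0.05, 5 were higher and 2 lower, beside 7.34% and 5.81% of all genes. Those that rose were Socs1 and Socs3, which inhibit JAK signalling. Socs1 was at 0.30 ± 0.057 on the log2 scale (SE, n = 5 arrays, limma adjusted p = 0.0289), and Socs3 at 0.20 ± 0.041 (SE, n = 6 arrays, limma adjusted p = 0.0344). This count moved with the arrays: it was 4 without replicate 5 and 0 without replicate 1, 2, 3, 4 or 6.

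The ligand genes did not pass. Il2, the main growth factor of activated T cells, had a log2 ratio of -0.19 ± 0.10, Il9 had 0.14 ± 0.056, Il21 had 0.10 ± 0.056 and Il15 had -0.043 ± 0.042. Il4 and Il7 had 0.0092 and 0.0015. The partner chains Crlf2, which pairs with the interleukin 7 receptor chain for the cytokine TSLP, and Il13ra1, which pairs with the interleukin 4 receptor chain, had 0.063 and -0.0014.

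Among the kinases, Jak1 did not pass on its brightest probe (log2 ratio 0.29 ± 0.066, limma adjusted p = 0.0576). Another Jak1 probe was called higher (0.23 ± 0.048, limma adjusted p = 0.0330) and the third, a dimmer one, had 0.059. Jak3, the kinase that binds the common gamma chain, had 0.021 ± 0.047. Of the STAT factors that these cytokines use most, Stat3 had 0.20 ± 0.048 (limma adjusted p = 0.0680), Stat5a -0.33 ± 0.073 on 4 arrays (limma adjusted p = 0.0652), Stat5b -0.13 ± 0.048 and Stat6 -0.055 ± 0.046; none passed. Stat5a and Stat5b are closely similar paralogs, and whether their probes tell them apart was not examined. Of the feedback genes, Cish, a target of STAT5, had -0.029 ± 0.074 and Socs2 had 0.041 ± 0.041.

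**Figure D5:**
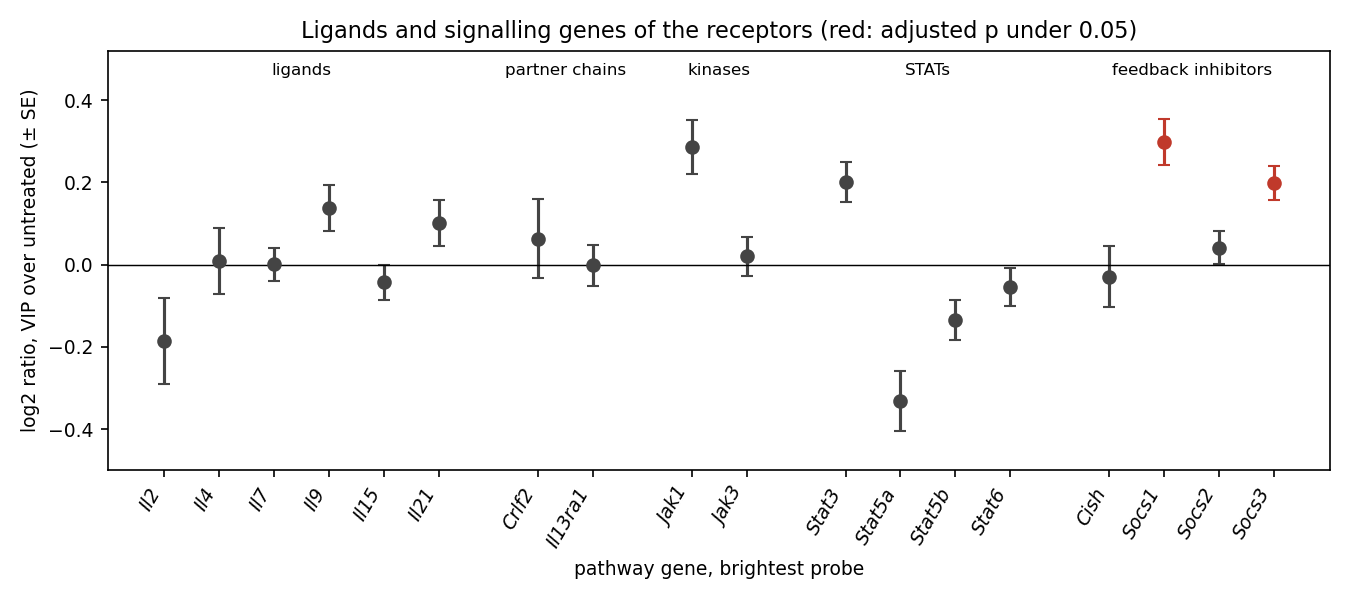
Log2 ratio of VIP over untreated with its SE (vertical axis) for the brightest probe of the 18 tested ligand and signalling genes (horizontal axis), grouped by role. Red points are those with an adjusted p under 0.05: Socs1 at 0.30 and Socs3 at 0.20.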

How the data were processed

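The receptor genes and gene lists were chosen with earlier results of these data known. Per the file headers, Agilent Feature Extraction 9.5.1.1 gave the deposited spot intensity, local background and flags. The deposited scanner files and the authors' series table also hold log10 ratios, which agree to within 4.5e-06 once the sign is turned to VIP over untreated.

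Mean intensity was corrected with normexp (offset 50) and loess within arrays (limma 3.58.1, R 4.3.3). The 1639 control spots and flagged spots were left out, and spots of a probe were averaged. Probes well above background on at least 3 arrays in either RNA, with a fitted value, were tested. The log2 ratio was fitted with a dye term and a VIP effect (lmFit, eBayes, 4 residual and 6.5 prior degrees of freedom), with Benjamini-Hochberg adjustment over all probes. Channel levels were scaled with Aquantile. All 8 receptor genes, called pathway genes, direct neighbours of called genes and the 3 most alike probes are named; other pathway genes, outer neighbours and the Il2ra and Il15ra pair were named after their values were seen. One gene of the pathway list is not reported here and is not in its counts. The fit was tested on simulated data. It recovered the larger shifts, but false calls exceeded their nominal share, so calls near the threshold (Il21r, Socs1, Socs3) are less certain. The number of arrays limits the precision.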

Additional observations from a re-analysis of the deposited data

Results flagged for a closer look

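Of 42 sets of 4 to 6 values examined for the receptor probes, 3 held a value far from the others of its group, and chance flags about 1 set in 20. The level of Il2rg in VIP RNA of replicate 6 was 12.49, against 13.14 for the next lowest array. That of Il7r in VIP RNA of replicate 5 was 9.67, against 10.15 for the next lowest. The level of the dim Il7r probe A_52_P32750 in VIP RNA of replicate 6 was 6.10, against 6.48 for the next lowest. For all 3 the untreated RNA of the same array was also the lowest of its group, at 12.24, 9.41 and 6.24 in this order.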

How the results depend on the processing

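Over the alternatives the log2 ratio lay between 0.38 and 0.47 for Il4ra and between 0.28 and 0.38 for Il21r. Filters, thresholds, Aquantile, the prior, the slide block and the dye term leave these ratios unchanged by construction, and the authors' series table repeats Agilent's log ratio, so these bear on the calls alone or not at all. For both genes the call was lost with a normexp offset of 0, with Agilent's log ratio, with the authors' series table, without the dye term, without moderation and without pairing the channels; Il21r also lost it with median centring. Il7r stayed between 0.18 and 0.27, and passed where the threshold was 0.1. The cause of these changes was not tested. A normexp offset of 0 called 108 probes higher, 9 lower, 0 receptor genes and 0 pathway genes. Agilent's log ratio and the authors' series table each called 38, 0, 0 and 0, median centring 171, 9, 1 and 0, and the fit without a dye term 226, 48, 0 and 0. Without moderation there were 0 calls of any kind, with 2037 probes higher and 1709 lower at an unadjusted p under 0.05. Without pairing, 3 probes were higher and 0 lower (169 and 17 unadjusted), with 0 receptor genes and 0 pathway genes. In these settings 3 receptor genes were higher at an unadjusted p under 0.05, except 1 without pairing, and 1 was lower without moderation. With 1 probe per gene 118 were lower, which has fewer probes tested. Array weights gave 340 lower and 4 pathway genes higher, and the trended robust prior 0 pathway genes (5 at an unadjusted p under 0.05). A threshold of 0.01 gave 245 higher, 44 lower and 0 pathway genes, and one of 0.1 gave 368 lower, 4 pathway genes higher and 1 lower. Leaving out each replicate gave 245 to 828 probes higher, 48 to 340 lower, 1 to 2 receptor genes and 0 to 4 pathway genes. Values near 0 changed sign: Il2ra had 0.096 with median centring and 0.0022 with array weights, its probe A_52_P330424 0.044 and 0.0036, Il9r -0.013 with median centring, and Il7r probe A_52_P32750 0.0030 with a normexp offset of 0 and 0.0082 with no background correction. Without single replicates Il2ra ranged over -0.037 to 0.022, its probe A_52_P330424 over -0.085 to 0.079, its probe A_52_P243438 over -0.024 to 0.063, Il9r over -0.024 to 0.050, Il7r probe A_52_P32750 over -0.034 to 0.013, Il7r probe A_52_P555957 over -0.010 to 0.095, and Il2ra minus Il2rb over -0.087 to 0.031. Both RNAs of a replicate share 1 array, so the main fit is paired within arrays. With slide as a random block 523 probes were higher, 169 lower, and 2 receptor genes and 2 pathway genes higher. Il9r and Il7r probe A_52_P32750 were too close to background to be measured well.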
